A study of Mus musculus with 4 samples.

Results

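The genes analysed here are those that the deposited annotation places in the KEGG pathway of aminoacyl-tRNA biosynthesis. There were 43 of them among 34745 mouse genes. They were split by name into 20 cytosolic synthetase genes, 17 mitochondrial synthetase genes, whose symbols end in 2, and 6 other genes of the pathway. Tarsl2, a second threonyl-tRNA synthetase gene of the cytosol, was counted as cytosolic although its symbol ends in 2. The cells were BMMs, monocytes and macrophages grown from the bone marrow of 8-week-old male wild-type C57BL/6 mice. All of them were kept without serum for 12 h and then given complete medium with RANKL at 100 ng/mL, the cytokine that drives macrophages to become osteoclasts. For 24 h they also received either dimethyl itaconate (RANKL+DI, 2 libraries) or DMSO as vehicle (RANKL+Veh, 2 libraries). The sample labels give the dose of DI as 20 mM and the methods of the study as 20 μM. There were no libraries without RANKL, so the values describe DI on top of RANKL.

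Aminoacyl-tRNA synthetases attach each amino acid to its tRNA and so supply the ribosome. Cytosol and mitochondria translate separately, and most amino acids have a separate nuclear gene for each compartment, while Gars and Kars serve both. Several cytosolic enzymes are held together in the multi-synthetase complex. Many synthetase genes are known targets of ATF4, the transcription factor that cells make more of when amino acids are short, and uncharged tRNA is what the kinase GCN2 senses upstream of it.

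Messenger RNA was counted per gene, with totals of 16085692 to 19403480 counts per library. All 43 members passed the filter on low counts and were among the 12590 genes tested with edgeR. Levels are given as CPM, counts relative to the TMM-scaled library size as edgeR gives them. A gene is called where the quasi-likelihood test of edgeR gave an adjusted p under 0.05, with Benjamini-Hochberg adjustment over all tested genes, and SE is the standard error of a log2 fold change. The labels do not say whether the 2 libraries of a group came from separate mice or cultures, so the p-values measure the spread between these libraries. Libraries of a group differed by more than counting noise, at a chi-square over its degrees of freedom of 8.06 (DI pair) and 8.23 (vehicle pair). Macrophage markers were present, with 7 of 7 tested. Beside a background of 14.8% of all tested genes called, edgeR called 5 of these markers higher and 1 lower (Fcgr1) with DI. Their summed level was 28384 and 29194 CPM with DI and 23037 and 22173 CPM with vehicle, most of it Lyz2, while Csf1r was at 1410 and 1368 CPM with DI and 1342 and 1284 CPM with vehicle. Of 8 osteoclast markers 7 were tested, and Calcr was at 0 in every library. Beside the same background, edgeR called 5 of the 7 lower with DI and 1, Atp6v0d2, higher (log2 fold change 0.27). Markers of B cells, T and NK cells, mast cells and erythroid cells each summed to at most 0.540 CPM. Stromal markers summed to 23.5 and 25.0 CPM with DI and 25.7 and 29.3 CPM with vehicle, most of it Col1a1, and neutrophil markers to 8.56 and 7.95 CPM with DI and 5.74 and 7.02 CPM with vehicle, with Ly6g at 0. None of these stromal and neutrophil markers was called by edgeR, with 1 at an unadjusted p under 0.05. In such bulk RNA, fewer cells of a type and less RNA per cell cannot be told apart, and the part of the shift in macrophage and osteoclast markers in the results below was not tested.

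Synthetase RNA was slightly lower with DI, and the shift was uneven between genes. Together the 43 genes summed to 2520 and 2532 CPM with DI and to 2739 and 2724 CPM with vehicle. Of the 43, 4 fell and 1 rose. These 5 calls are 11.6% of the members, against 14.8% of all tested genes. The 4 lower calls are 9.3% of the members, against 7.7% of all tested genes, and the single higher call stands beside 7.14%. Thus the share of calls over the whole pathway was near the background. The log2 fold change was below 0 for 33 members (76.7%), against 49.8% of all tested genes, with a median of -0.10 against 0.00. The 2 groups did not overlap for 28 members (65.1%), against 58.6% of all tested genes. For 23 of these 28 the RANKL+DI libraries were the lower ones, which is 53.5% of the members against 29.6% of all tested genes, and for 5 they were the higher ones, with a background of 29.0%.

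**Figure D1:**
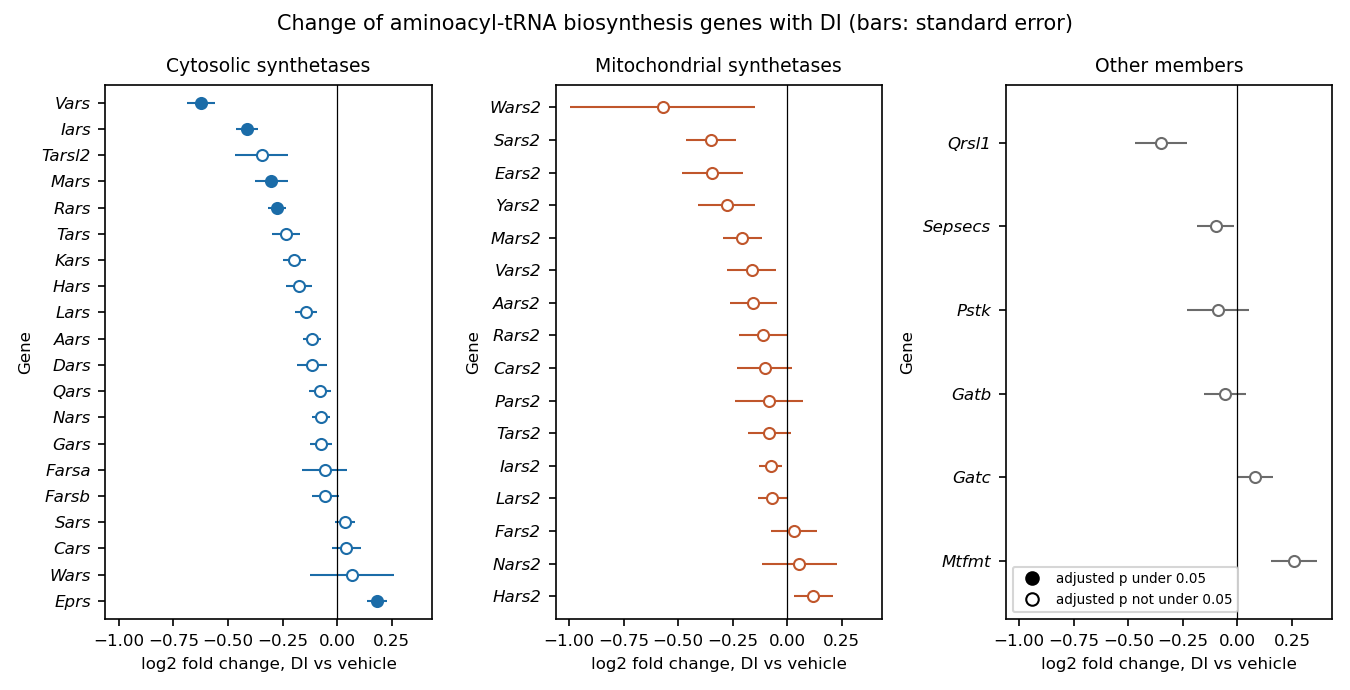
Log2 fold change of 42 members with DI against vehicle (x axis) by gene (y axis), for cytosolic, mitochondrial and other members, with the standard error as bars and filled points for an adjusted p under 0.05 (edgeR). All 5 filled points are cytosolic, with Vars lowest at -0.62 and Eprs at 0.18 as the highest of its class, and the bars are widest for Wars2 and Wars.

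Among the 20 cytosolic synthetase genes, Vars, Iars, Mars and Rars fell and Eprs rose. These 5 calls are 25% of the class, beside the background of 14.8%, and 11 of the 20 had an unadjusted p under 0.05, as did 30.0% of all tested genes. The class had a median of 1730 counts per library, against 460 over all tested genes. Its median SE was 0.0574, against 0.0976. A change of a given size was thus easier to detect in this class than in most genes. The median log2 fold change was -0.11, and 16 of 20 values were below 0. Summed over the class, the level was 2075 and 2098 CPM with DI and 2274 and 2267 CPM with vehicle. The groups did not overlap for 15 of the 20 genes (75.0%, against 58.6% of all tested genes), with RANKL+DI lower in 13 of them (65.0%, against 29.6%). Scaling by library size only gave 10 calls in the class, all lower, and leaving out 1 library gave 3 or 4, or 2 without the first vehicle library.

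Vars (ENSMUSG00000007029, chromosome 17 from 35000987 to 35016322, GRCm38), the valyl-tRNA synthetase gene, had the largest decrease of the calls. It was at 63.6 and 62.8 CPM with DI and at 92.8 and 102 CPM with vehicle. Both DI libraries lay well below both vehicle libraries. The mean was 63.2 ± 0.600 CPM with DI and 97.4 ± 6.62 CPM with vehicle (SD, n = 2 each), which is 35.1% lower, with a log2 fold change of -0.62 (SE 0.0657, edgeR adjusted p = 0.00334).

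Iars (ENSMUSG00000037851, chromosome 13 from 49682100 to 49734267), which charges isoleucine, was at 126 and 136 CPM with DI and at 172 and 176 CPM with vehicle. The libraries of the 2 groups were again separate. The log2 fold change was -0.41 (SE 0.0509, edgeR adjusted p = 0.00550), a decrease of 24.8%. About 49.9% of its transcript has a copy in Gm4849 at 96.2% identity, so reads could be split between the genes and its level is uncertain.

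Rars (ENSMUSG00000018848, chromosome 11 from 35808381 to 35834506), the arginine enzyme of the complex, was at 127 and 130 CPM with DI and at 156 and 155 CPM with vehicle. Its libraries were close to each other within each group, and the log2 fold change was -0.27 (SE 0.0420, edgeR adjusted p = 0.0108), or 17.3% lower. Without the first vehicle library the adjusted p became 0.0503 (edgeR), just past the threshold.

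Mars (ENSMUSG00000040354, chromosome 10 from 127296221 to 127311786), which charges methionine for initiation and elongation, was at 58.3 and 52.7 CPM with DI and at 66.4 and 70.5 CPM with vehicle. The groups did not overlap but were closer together than for Vars. The log2 fold change was -0.30 (SE 0.0748, edgeR adjusted p = 0.0479). This call did not hold without the second DI library (edgeR adjusted p = 0.154), without the first vehicle library (edgeR adjusted p = 0.0810) or without the second (edgeR adjusted p = 0.164). Exons of Mars overlap those of Ddit3 on the opposite strand over 1.99% of their length, and no source says that reads were counted by strand.

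Eprs (ENSMUSG00000026615, chromosome 1 from 185363044 to 185428360) encodes the joined enzyme for glutamate and proline, which sits in the same complex. It moved the other way, with 269 and 255 CPM with DI and 234 and 228 CPM with vehicle. The DI libraries were both higher than the vehicle libraries, by 13.5% on average, with a log2 fold change of 0.18 (SE 0.0447, edgeR adjusted p = 0.0465). The call was lost when any 1 of the 4 libraries was left out, at an adjusted p of 0.0527 to 0.169 (edgeR). With scaling by library size only, its log2 fold change was 0.08 (edgeR adjusted p = 0.264).

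**Figure D2:**
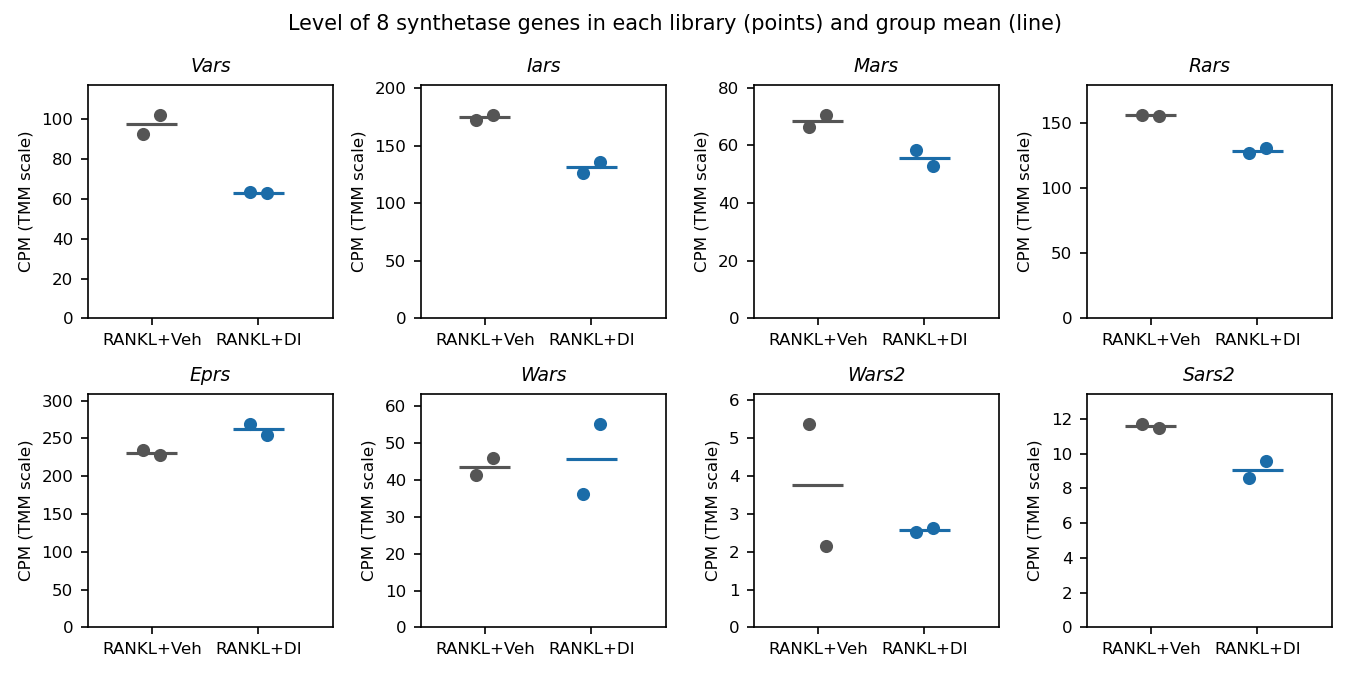
CPM (y axis, from 0) of the 5 called members and of Wars, Wars2 and Sars2 in the RANKL+Veh and RANKL+DI libraries (x axis), with 1 point per library and the group means as lines. The 2 groups are separate for Vars, Iars, Mars, Rars, Eprs and Sars2, while the DI libraries of Wars and the vehicle libraries of Wars2 lie far apart and overlap the other group.

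The other 15 cytosolic genes did not pass the test. The nearest to the threshold was Tars, the threonyl-tRNA synthetase gene, with 80.3 and 86.2 CPM with DI against 101 and 94.6 CPM with vehicle and a log2 fold change of -0.23 (SE 0.0634, edgeR adjusted p = 0.0628). Kars had a log2 fold change of -0.20, Hars of -0.17, Lars of -0.14 and Aars of -0.11. Each had separate groups with DI lower, as did 29.6% of all tested genes. Tarsl2 had a larger value of -0.35, but at 14.8 and 16.4 CPM with DI and 18.1 and 21.6 CPM with vehicle its error was larger too (SE 0.123, edgeR adjusted p = 0.123). Wars, the tryptophanyl-tRNA synthetase gene and itself inducible by interferon, was the most variable member of its class. It was at 36.1 and 55.1 CPM with DI and at 41.2 and 45.8 CPM with vehicle, so that the DI libraries lay on either side of the vehicle libraries. Its log2 fold change was 0.07 (SE 0.192), and it became 0.34 without the first DI library and -0.27 without the second. Yars, the cytosolic tyrosine enzyme, does not carry the KEGG term in the deposited annotation and was not counted. It was at 50.2 and 46.1 CPM with DI and at 56.5 and 62.4 CPM with vehicle, with a log2 fold change of -0.30 (SE 0.0801, edgeR adjusted p = 0.0580).

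The calls were next read against the multi-synthetase complex, a grouping made after the values were seen. Its 8 synthetase genes are Eprs, Iars, Lars, Mars, Qars, Rars, Kars and Dars. Of these, 4 were called, 3 lower and 1 higher, beside a background of 14.8% of genes called and 7.7% called lower. The calls of Mars and Eprs did not hold in several fits with 1 library left out, as given above. The 8 genes had a median of 1958 counts and a median SE of 0.0506, against 460 and 0.0976 over all tested genes. Changes were thus easier to detect in them than in most genes. Their median log2 fold change was -0.17, and their summed level was 973 and 973 CPM with DI and 1061 and 1064 CPM with vehicle. The 12 cytosolic genes outside the complex held 1 call, Vars, with a median of -0.07 and a median SE of 0.0628. The 3 scaffold genes of the complex are not members of the KEGG term. Aimp1, Aimp2 and Eef1e1 had log2 fold changes of -0.19, -0.32 and -0.18, and none passed the test with edgeR (adjusted p = 0.298, 0.141 and 0.185). Each had separate groups with DI lower, as did 29.6% of all tested genes. Only 1 of the 3 had an unadjusted p under 0.05.

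None of the 17 mitochondrial synthetase genes was called by edgeR, and 2 of them, Sars2 and Ears2, had an unadjusted p under 0.05, a smaller share than the 30.0% of all tested genes. DESeq2 and limma-voom also called 0, and scaling by library size only gave 1 call, Sars2. The background of calls is 14.8%. The log2 fold change was below 0 for 13 of 17 (76.5%) and the median was -0.10. The median is close to the -0.11 of the cytosolic genes. Mitochondrial members had fewer counts, with a median of 278 per library against 1730, and a median standard error of 0.112 against 0.0574. A change of the size seen in the cytosolic class was thus harder to detect here. The summed level of the class was 344 and 335 CPM with DI and 360 and 357 CPM with vehicle. The groups did not overlap for 10 of the 17 genes, which is 58.8%, about the background of 58.6%. Of these, 8 were lower with DI (47.1% of the class, against 29.6%) and 2 higher.

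Sars2, the mitochondrial serine enzyme, was at 8.62 and 9.55 CPM with DI and at 11.7 and 11.5 CPM with vehicle. The groups were separate, with a log2 fold change of -0.35 (SE 0.116, edgeR adjusted p = 0.105). Ears2, which charges glutamate, had 6.18 and 5.81 CPM with DI and 8.05 and 7.14 CPM with vehicle. Its log2 fold change was -0.34 (SE 0.140, edgeR adjusted p = 0.165), and its groups were separate too. Wars2 gave the lowest value of the class at -0.57, but this rested on 1 library. The DI libraries held 43 and 49 counts and the vehicle libraries 100 and 36, and the SE was 0.423 (edgeR adjusted p = 0.427). Without the first vehicle library its log2 fold change was 0.24, and without the second it was -1.06.

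Several members share exon sequence with a neighbour. Exons of Iars2 overlap those of Rab3gap2 over 22.9% of their length and exons of Pstk those of Ikzf5 over 58.8%, both on the opposite strand. Hars and Hars2 lie head to head and overlap over 195 bases. Reads from such stretches cannot be assigned without strand. Exons of the cytosolic gene Aars overlap those of Exosc6 over 14.3% of their length on the same strand. Strand would not separate those reads, so the level of Aars is uncertain.

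The remaining 6 members do not charge tRNAs in the usual way. Gatb, Gatc and Qrsl1 encode subunits of the mitochondrial complex that converts mischarged glutamate to glutamine on its tRNA, Mtfmt formylates the mitochondrial initiator methionine, and Pstk and Sepsecs make selenocysteine on its tRNA. None was called by edgeR, DESeq2 or limma-voom, and 2 of 6 had an unadjusted p under 0.05 with edgeR, beside the 30.0% of all tested genes. These were the lowest and the highest of the class. Qrsl1 was at 11.7 and 12.5 CPM with DI and at 16.6 and 14.3 CPM with vehicle, with a log2 fold change of -0.35 (SE 0.119, edgeR adjusted p = 0.112). Mtfmt was at 12.8 and 12.5 CPM with DI and at 10.4 and 10.7 CPM with vehicle, with a log2 fold change of 0.26 (SE 0.105, edgeR adjusted p = 0.162). Thus a subunit gene of the amidotransferase and the formyltransferase gene lay on opposite sides of 0, while Gatb and Gatc were at -0.06 and 0.08.

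Levels between genes were compared per length, as the deposited FPKM values, averaged over the 2 vehicle libraries. The median was 20.4 FPKM over cytosolic genes, with a range of 2.92 to 92.7, and 2.91 FPKM over mitochondrial genes, with a range of 0.419 to 9.29. The order was led by Nars at 92.7 FPKM, followed by Hars at 46.6, Kars at 43.5, Rars at 40.7 and Tars at 38.4 FPKM. The called genes were spread over this order, with Rars near the top, Iars at 26.9, Mars at 15.1, Eprs at 11.3 and Vars at 10.4 FPKM. Tarsl2 was the lowest cytosolic gene. Among mitochondrial genes Lars2, Cars2 and Iars2 led with 9.29, 9.12 and 8.96 FPKM, and Wars2 was the lowest. Cars2 shares 22.3% of its transcript with Naxd, and Iars2 37.2% with Rab3gap2, both on the opposite strand. Without known use of strand, the levels and places of Cars2 and Iars2 are uncertain.

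Each cytosolic gene was then set against the mitochondrial gene for the same amino acid, which gave 18 pairs. In 16 of them the cytosolic gene had the higher FPKM in every library, the exceptions being Farsa with Fars2 and Tarsl2 with Tars2. The log2 ratio of the cytosolic to the mitochondrial CPM was lower with DI in 12 pairs and higher in 6, with a median difference of -0.10. The groups did not overlap for 8 of the lower and 4 of the higher pairs. For single genes, the groups did not overlap in CPM for 58.6% of all tested genes. No background share was computed for ratios. Pairs that share a gene, such as both Eprs pairs, are not independent. The ratios are given as a description by library, without a test.

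The lowest difference was that of Vars and Vars2. Their log2 ratio was 2.61 and 2.69 with DI and 3.01 and 3.21 with vehicle, a difference of -0.46. Iars and Iars2 followed with 0.44 and 0.56 against 0.86 and 0.81, a difference of -0.34. Hars and Hars2 had 1.60 and 1.56 against 1.81 and 1.95, a difference of -0.30. In these 3 pairs both DI libraries were below both vehicle libraries. The ratios of the Iars and Hars pairs are uncertain, because their genes share sequence with other genes, as given above. The highest difference was that of Eprs and Ears2, where the members stood on opposite sides of 0, with 5.44 and 5.45 against 4.86 and 4.99, a difference of 0.52. Sars and Sars2 had 3.79 and 3.62 against 3.31 and 3.31, a difference of 0.39 with separate groups. Wars and Wars2 had 3.85 and 4.40 against 2.94 and 4.41. These overlapped, and the difference of 0.45 became -0.28 without the first vehicle library.

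**Figure D3:**
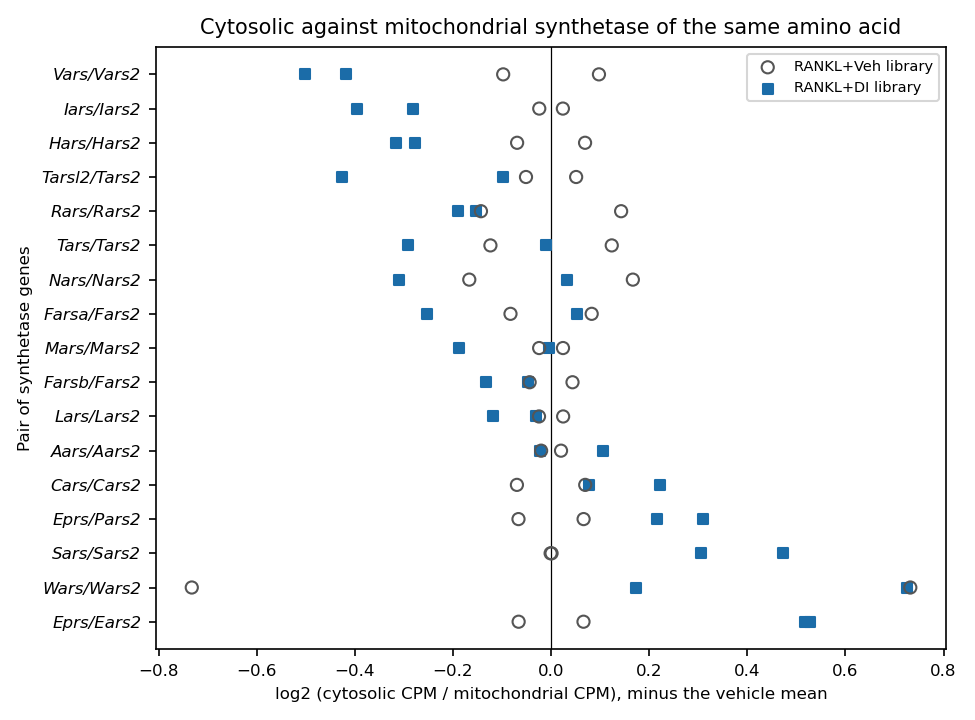
Log2 ratio of the cytosolic to the mitochondrial CPM for 17 gene pairs (y axis), minus the mean of the vehicle libraries (x axis), with 1 point per library. DI libraries lie left of both vehicle libraries for Vars/Vars2 and right of them for Eprs/Ears2, while the vehicle libraries of Wars/Wars2 are far apart.

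Start regions were searched for short motifs, because ATF4 is known to act through C/EBP-ATF response elements. The windows were those of RefSeq on GRCm38.p6, from 250 bases before to 50 bases after a start, and 31 of the 43 members were matched. Among the members without a window were Cars, Gatb, Hars, Hars2, Lars, Nars, Pars2, Rars, Sepsecs, Vars and Wars. On both strands, the core TGATGNAA was found in Aars, Gars, Iars and Tars. These are 12.9% of the matched members, or 4 of 13 matched cytosolic and 0 of 14 matched mitochondrial genes, against 4.51% of 27025 genes with a window. The 4 sites below are printed as examples of sequence shared between members, 1 for each gene. Each is on the strand of its gene, with the match in capitals. Aars holds a further match, from 112 bases before the start, that is not printed. These matches lie on the opposite strand of the gene and so read TTNCATCA.
Aars, chr8:111033840-111033869 (plus strand), match from 9 bases after the start: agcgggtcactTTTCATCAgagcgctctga
Gars, chr6:55037960-55037989 (plus strand), match from 30 bases before the start: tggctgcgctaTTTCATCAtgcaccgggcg
Iars, chr13:49682126-49682155 (plus strand), match from 7 bases after the start: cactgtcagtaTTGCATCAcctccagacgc
Tars, chr15:11399655-11399684 (minus strand), match from 15 bases before the start: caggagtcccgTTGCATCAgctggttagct

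Of these 4 genes Iars was called, and Tars, Aars and Gars had log2 fold changes of -0.23, -0.11 and -0.07 without a call. Other motifs were found at shares nearer to those of all genes. The core of the antioxidant response element, TGACNNNGC, was in 6 matched members (19.4%, against 14.0% of all genes), and TTCNNNGAA, to which STAT factors bind, in 4 (12.9%, against 9.55%). The core of the interferon-stimulated response element was in 1 member, Qars (3.23%, against 3.99%). No matches of different motifs overlapped. A match of these letters is a description of the window and shows no binding.

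Lists of genes around tRNA charging moved unevenly, and each is given by its counts, to be read beside the background of 14.8% of calls. Of 10 genes for proofreading and tRNA end processing, Xpot fell, the exporter of tRNA from the nucleus. It was at 122 and 121 CPM with DI and at 139 and 138 CPM with vehicle (log2 fold change -0.19, SE 0.0411, edgeR adjusted p = 0.0313), and the call was lost when any 1 library was left out. Of 9 mitochondrial translation factors edgeR called 0, with 3 at an unadjusted p under 0.05 (30.0% of all tested genes) and a median of -0.15.

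The list for the amino acid starvation response did not move one way. It holds ATF4 and a part of its targets, with synthetases and the transporters given below kept apart. Of 20 genes tested 3 fell and 3 rose, with a median log2 fold change of -0.02. Fewer were called in each direction when any 1 library was left out. Cebpb and Atf5, both transcription factor genes, rose with log2 fold changes of 0.80 and 0.72. Psat1 of serine synthesis and Shmt2 of mitochondrial one-carbon metabolism fell, with log2 fold changes of -0.74 and -0.54. Atf4 RNA itself was at 226 and 216 CPM with DI and at 215 and 201 CPM with vehicle, with a log2 fold change of 0.09 (edgeR adjusted p = 0.325). Of 7 genes for the kinases and the phosphatase of eIF2α and its subunit, Eif2ak2, the interferon-inducible kinase PKR, and Eif2s1, eIF2α itself, fell with log2 fold changes of -0.57 and -0.23. When any 1 library was left out, 1 gene of this list was called instead of 2.

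Amino acid transporters held more calls. Of 14 tested 5 fell and 2 rose, with a median of -0.18. The list had a median of 1367 counts and a median SE of 0.0564, against 460 and 0.0976 over all tested genes. A change of a given size was thus easier to detect here than in most genes. There were 3 lower calls instead of 5 without the second DI library and without either vehicle library. Slc7a1, which takes up arginine and lysine, went from 90.1 and 92.3 CPM with vehicle to 58.6 and 62.1 CPM with DI (log2 fold change -0.60). Slc7a5, which takes up large neutral amino acids such as leucine, isoleucine and valine, had a log2 fold change of -0.82, and Slc1a5, a glutamine transporter, of -0.55. Slc7a11, the cystine importer and a known NRF2 target, rose from 70.9 and 68.4 CPM to 165 and 166 CPM, with a log2 fold change of 1.25. Slc3a2, the heavy chain that pairs with Slc7a5 and Slc7a11, was the other gene that rose, with a log2 fold change of 0.38 (edgeR adjusted p = 0.00661), and it is named here after its value was seen. The adjusted p of the first 4 was between 2.58e-04 and 0.00477 (edgeR). For comparison, of 18 interferon-stimulated genes tested 17 fell, with a median of -1.30, among them Oasl2 at -1.38, Cxcl10 at -2.08 and Ifit3 at -1.88.

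**Figure D4:**
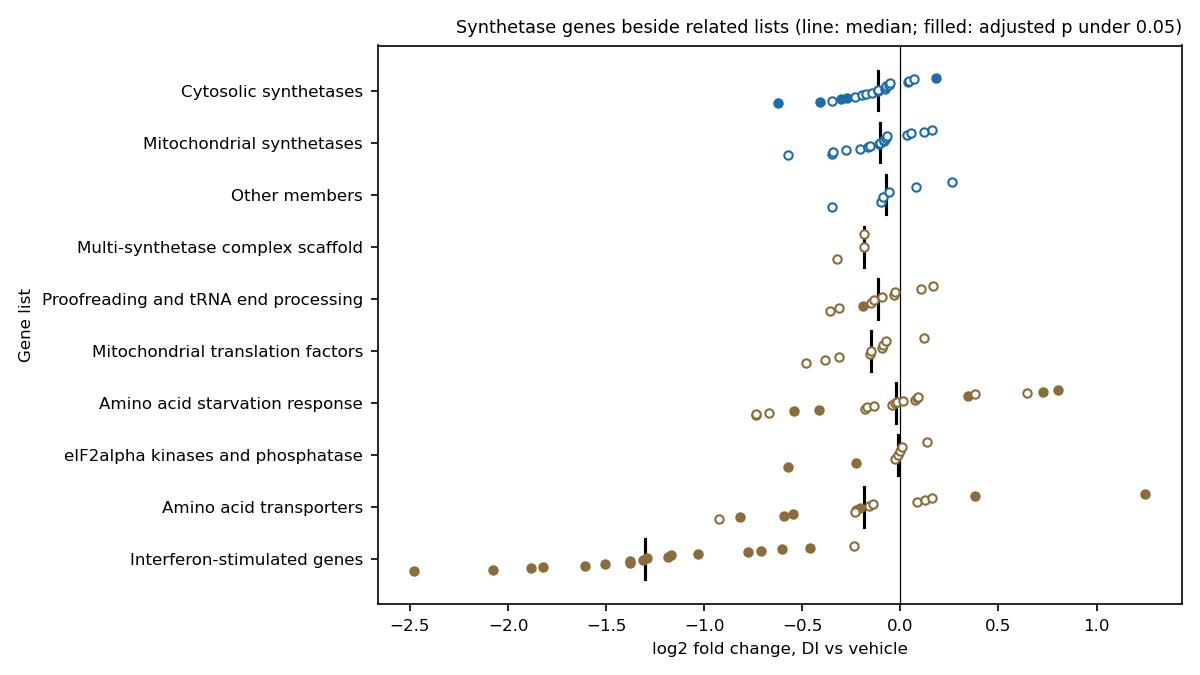
Log2 fold change with DI against vehicle (x axis) of each tested gene in the 3 classes of members and in 7 related lists (y axis), with filled points for an adjusted p under 0.05 (edgeR) and the median of each list as a line. The medians of the synthetase classes lie between -0.11 and -0.07. Those of the related lists lie between -0.19 (complex scaffold) and -0.01 (eIF2α kinases and phosphatase), apart from the -1.30 of interferon-stimulated genes.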

How the data were processed

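The authors deposited raw counts per gene for every library, together with FPKM values, which are relative to gene length and to the library total without TMM scaling. The KEGG terms in the deposited table were used to find the members. The annotation positions lie on GRCm38 per the labels. The aligner, the counting program and the use of strand are not given in the sources used here. The study's statistics name a t test and ANOVA in general, but the values are counts, so a count model was used.

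The count model was edgeR 4.0.16 under R 4.3.3 (TMM factors, default filter, quasi-likelihood fit with condition as its only term), with 2 residual degrees of freedom before moderation. A standard error is the absolute log2 fold change divided by the root of F. At this depth 3 counts are 0.160 to 0.180 CPM, which covers counting error only. Copies of members were sought with BLAST+ 2.17.0 in GENCODE M21 (minimum identity 95%, minimum share of the transcript 20%). Promoter windows were from RefSeq. The fit was tested on simulated data.

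Named were the called members, the highest and lowest of each class, the 3 highest and 3 lowest pair ratios and at most 4 called genes per related list, those with the smallest p. Yars, the scaffold genes, Atf4 and the members given by value only were named after their values were seen. Some values that this rule includes are not reported here. The members and lists were chosen with earlier results of these data known. The alternatives were DESeq2's size factors, library size only, no filter, the Wald test of DESeq2 1.42.0, a minimum of 10 counts in each library, limma-voom (limma 3.58.1), the replicate number as a block and each library left out. For the related lists they were added after the data were seen.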

Additional observations from a re-analysis of the deposited data

How the results depend on the processing

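Vars and Iars were called under all 11 alternatives, Rars under 10, Mars under 7 and Eprs under 4. Scaling by library size only moved the median over all tested genes to -0.10 and gave 10 calls among cytosolic, 1 among mitochondrial and 1 among other members, with 1932 lower and 548 higher genes in all, against 969 and 899. Under it the log2 fold changes of Sars (-0.067), Cars (-0.061), Wars (-0.033), Fars2 (-0.071), Nars2 (-0.048) and Gatc (-0.023) turned below 0, so directions of small changes are relative to the scaling. With the replicate number as a block, 3 cytosolic genes and 1389 genes in all were called. Over genes, the log CPM difference between libraries 1 and 2 of the DI group correlated at -0.03 with that of the vehicle group. The numbers were therefore not taken as pairs. Without one library each, the calls ranged from 1087 to 1394 over all genes and from 2 to 4 among cytosolic members, the fewest without the first vehicle library for the cytosolic genes, and stayed at 0 in the other classes. The pairs with a lower ratio numbered 11 to 13. Fewer samples enter these fits. The log2 fold change then ranged from -0.21 to 0.082 for Farsa, -0.015 to 0.10 for Cars, -0.27 to 0.34 for Wars, -1.06 to 0.24 for Wars2, -0.25 to 0.043 for Rars2, -0.24 to 0.024 for Cars2, -0.17 to 0.0061 for Pars2, -0.17 to 0.0075 for Tars2, -0.052 to 0.12 for Fars2, -0.094 to 0.23 for Nars2 and -0.22 to 0.031 for Pstk. Of 473 values of single members under alternatives, 432 kept direction and side of the threshold. Most of the 473 belong to members that were not called, so this count does not measure how stable the calls are. Among related lists, amino acid transporters had 3 lower calls instead of 5 without the second DI or either vehicle library. The causes were not tested. Low counts, with a median of 278, limit what can be detected among mitochondrial members.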
